A study of Mus musculus with 16 samples.

Results

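Epiblast stem cells (EpiSCs) grown with a Wnt inhibitor were compared with EpiSCs grown without it, in 6 of the 16 RNA sequencing libraries of the series. The 6 were chosen by the culture condition in the labels and not by any measured value. EpiSCs in AF medium gave 3 libraries, all of the line AF32, at passages 13, 14 and 15. EpiSCs in AFX medium gave 3 libraries, all of the line AFX6, at passages 5, 8 and 12. AF stands for activin and fibroblast growth factor, and in AFX the tankyrase inhibitor XAV939 is added, which is background knowledge and not stated in the labels. Activin and fibroblast growth factor are thus shared by both groups. The strain, the genotype and the feeder or matrix conditions were not given in the sources used here. Each medium was represented by 1 line, and every AFX library was at an earlier passage than every AF library, so medium, line and passage cannot be told apart. The replicates of each EpiSC group were passages of 1 line. The p-values rest on a spread estimated from all 16 libraries. It holds differences between passages and, in the formative stem cells described next, between the lines 5ar1 and 5ar3. It does not measure the spread between separately derived EpiSC lines of a medium. The other libraries were 6 of formative stem cells (FS) in A3XR medium, from the lines 5ar1 and 5ar3, and 4 of naive embryonic stem cells (ES) in 2iL medium, from the line E14IV-C. They entered the model to estimate the spread and are given below as reference levels. These levels do not stand for cells without a Wnt inhibitor, as media other than AF and AFX were not compared in that respect.

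Wnt proteins act through beta-catenin, which a destruction complex built on axin otherwise marks for degradation. When a Wnt ligand binds Frizzled and LRP receptors the complex is blocked, and beta-catenin joins TCF/LEF factors at target genes, several of which encode inhibitors of the same pathway. Tankyrases mark axin for degradation, so a tankyrase inhibitor stabilises axin and lowers beta-catenin. In the postimplantation embryo Wnt acts together with Nodal to induce the primitive streak, from which mesoderm and definitive endoderm arise, and EpiSC cultures are known to contain cells that express genes of these lineages.

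All 6 libraries carried the transcripts that define primed pluripotent cells. Pou5f1, the core pluripotency factor Oct4, lay between 506 and 856 CPM (counts per 1000000 counts of a library). Fgf5, a marker of the postimplantation epiblast, lay between 53.9 and 141 CPM, against 0.0691 to 0.298 CPM in ES. Zfp42 and Esrrb, which mark naive cells, did not exceed 0.163 and 1.18 CPM in any EpiSC library, while ES held 263 to 389 and 542 to 707 CPM. The EpiSC libraries had 25683808 to 33290250 counts each, and the mitochondrial rRNA gene mt-Rnr2 took 14.95% to 25.02% of them.

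AFX passage 12 stood apart from the other libraries of its group, and was the AFX library nearest to AF in passage number. Most counts of called list members that change without it are given both ways. As it was singled out by its values, fits without it are a description and not a separate test. After 0.5 CPM was added to every value, 52 of the 16425 genes tested outside chromosomes 11, X and Y were at least 4-fold higher at AFX passage 12 than at both passages 5 and 8, and 0 were 4-fold lower. The same count was 0 to 2 for each of the other EpiSC libraries in each direction. Across genes, log2 CPM of passage 12 correlated at 0.976 to 0.980 with the other AFX libraries and at 0.969 to 0.973 with the AF libraries. AFX passages 5 and 8 correlated at 0.987 with each other and at 0.949 to 0.961 with AF. Genes are not independent replicates, and all these libraries share most of their expressed genes.

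The groups were compared with the quasi-likelihood test of edgeR, and called genes had a p below 0.05 after Benjamini-Hochberg adjustment. Genes of chromosomes 11, X and Y were set aside when the comparison was defined, and their calls are given at the end. Outside them 470 of 16425 genes were called, which is 2.86% of those tested. In AFX 203 of these were higher (1.24%) and 267 were lower (1.63%), and the log2 fold changes of the 16425 genes had a median of 0.02. It was negative for 7712 of the 16425 genes and positive for 8590. The counts of list members below stand beside these shares. A log2 fold change of at least 1 in either direction was reached by 388 called genes, of which 156 were higher and 232 were lower in AFX. The count of calls lay between 185 and 632 when 1 library was left out. It rose to 632 without AFX passage 12, with 204 genes higher and 428 lower, and fell to 185 without AFX passage 8.

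Genes that respond directly to Wnt were lower in AFX where they were called. Of 20 target and feedback genes, 14 were tested and 6 lie on set-aside chromosomes (Axin2, Tcf7, Notum, Rnf43, Znrf3 and Kremen1). In AFX 2 of the 14, Sp5 and Sp8, fell and none was called higher, against the 1.63% of all genes called lower. The median log2 fold change of the 14 was -0.82. The promoters of Sp5 and of T, a streak gene treated below, are shown because they belong to the genes with the largest differences and each holds a TCF/LEF motif, for which they were picked. The 250 bases before the transcription start were taken from RefSeq on GRCm38.p6 and are written 5′ to 3′ on the strand of the gene. The Sp5 window is chr2:70474673-70474922 and the T window is chr17:8434173-8434422, both on the plus strand. Capitals mark the motif, which was searched on both strands as CTTTGAT or CTTTGAA. It reads CTTTGAT on the gene's strand in Sp5, where it starts 104 bases before the transcription start. In T it lies on the opposite strand, as CTTTGAA, and starts 235 bases before it.
Sp5: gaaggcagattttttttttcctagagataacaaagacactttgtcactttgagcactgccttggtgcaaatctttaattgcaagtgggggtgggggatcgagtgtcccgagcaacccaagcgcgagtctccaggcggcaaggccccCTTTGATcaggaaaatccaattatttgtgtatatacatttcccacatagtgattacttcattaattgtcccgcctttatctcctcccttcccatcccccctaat
T: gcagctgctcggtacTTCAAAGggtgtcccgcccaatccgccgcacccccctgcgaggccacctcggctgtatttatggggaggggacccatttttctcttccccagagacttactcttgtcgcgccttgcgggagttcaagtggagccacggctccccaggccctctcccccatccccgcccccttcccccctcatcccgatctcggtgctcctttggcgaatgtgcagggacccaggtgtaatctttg
The motif was present in 7.48% of the 32851 RefSeq promoter windows of the same length. Of the 24 Wnt, streak and Nodal genes for which a window was found, 5 held it (Sp5, T, Sp8, Dkk1 and Tnfrsf19), in 5 of 34 windows. The windows of Nkx1-2 and Eomes, which were also called lower, did not hold it. The FOXH1 motif AATNCACA, bound by a partner of Nodal signalling, was present in 3.18% of all windows and in neither of these. A match is a description of the letters in the window and not evidence of binding.

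Sp5, a zinc finger factor that is among the most direct targets of beta-catenin, gave 0.0714, 0.0339 and 0.337 CPM at AFX passages 5, 8 and 12. In AF it gave 3.21, 10.9 and 2.62 CPM at passages 13, 14 and 15. The groups did not overlap, and AFX was lower by a log2 fold change of -5.18 ± 0.73 SE (n = 3 and 3; adjusted p of edgeR, 0.000383). The AFX values correspond to 2, 1 and 10 reads. In FS the 6 libraries lay between 0 and 0.141 CPM. Its relative Sp8 gave 2.93, 0.949 and 4.05 CPM in AFX and 16.9, 15.1 and 9.91 CPM in AF, at -2.40 ± 0.48 SE (edgeR adjusted p = 0.00789). Both calls held when any 1 library was left out, at adjusted p of up to 0.00491 for Sp5 and 0.0389 for Sp8. Sp8 did not pass a test against a log2 change of 1 (adjusted p = 0.109).

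Other targets had lower values in AFX without passing the main test. Nkd1, a feedback inhibitor that binds Dishevelled, gave 3.12 to 4.45 CPM in AFX and 7.82 to 17.8 CPM in AF (log2 fold change -1.66 ± 0.52 SE, edgeR adjusted p = 0.0841). It was called with the DESeq2 Wald test (adjusted p = 0.0256), in a fit of only the 6 EpiSC libraries (0.0112) and with 1 mean per line (0.023). Dkk1, a secreted blocker of LRP receptors, gave 0.393 and 0.203 CPM at AFX passages 5 and 8 but 16.1 CPM at passage 12, against 20.9 to 64.3 CPM in AF. Lgr5, the receptor for R-spondins, gave 0.893 and 0.203 CPM at passages 5 and 8, 7.99 CPM at passage 12 and 12.7 to 24.4 CPM in AF. With all libraries Dkk1 and Lgr5 had adjusted p of 0.221 and 0.117, and without AFX passage 12 these were 0.00271 and 0.00181, with log2 fold changes of -6.99 and -4.92. Leaving out any other 1 library gave no call (edgeR adjusted p of 0.272 to 0.536 for Dkk1 and 0.171 to 0.369 for Lgr5). Not every target was lower. Lef1, itself a TCF/LEF factor, and Ccnd1, encoding cyclin D1, overlapped between the groups at log2 fold changes of -0.23 ± 0.42 and -0.21 ± 0.35 (SE), and both were positive in a fit with passage as a covariate (0.57 and 0.32).

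**Figure D1:**
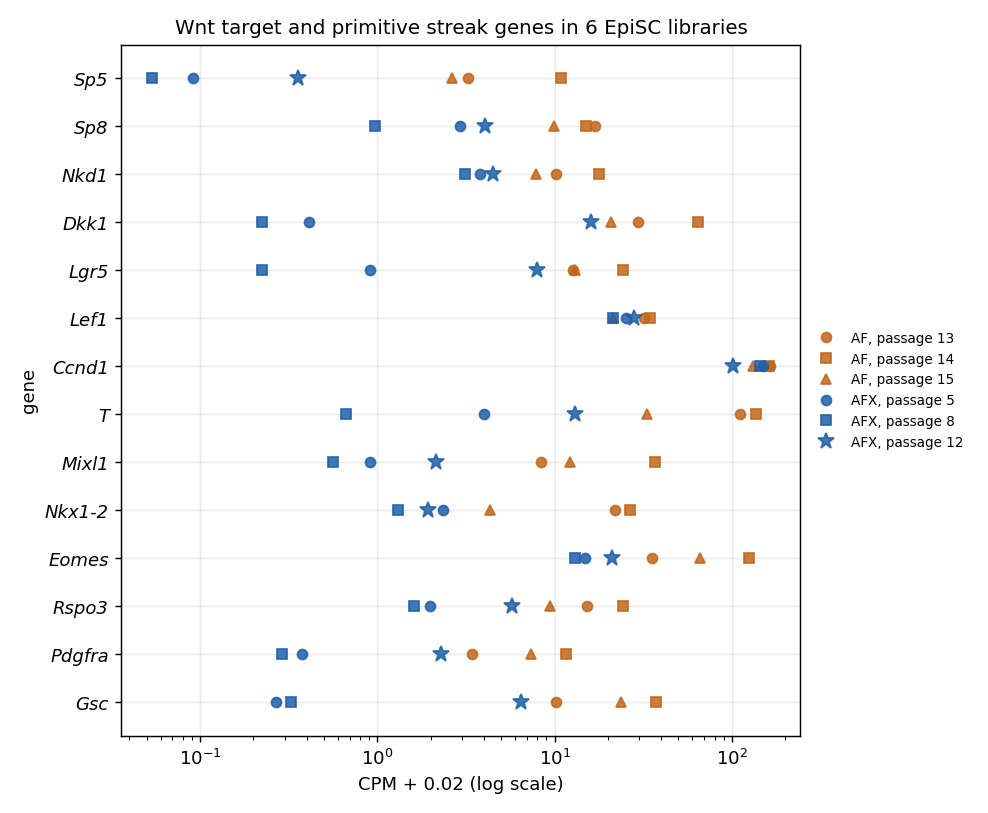
Level of 7 Wnt target genes (Sp5 to Ccnd1) and 7 primitive streak genes (T to Gsc) in each EpiSC library, in CPM with 0.02 added, on a log axis. Each point is 1 library, blue for AFX and orange for AF, and the star is AFX passage 12. Sp5, T and Mixl1 are lower in all 3 AFX libraries than in any AF library, Lef1 and Ccnd1 overlap, and for Dkk1, Lgr5 and Gsc the star lies near the AF points.

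The ligands and receptors held no call with all libraries. None of the 9 tested Wnt ligands was called, at a median log2 fold change of -1.25. Wnt8a, a ligand of the streak, gave 5.96, 1.12 and 12.6 CPM in AFX and 36.6, 44.9 and 9.80 CPM in AF, so the groups overlapped (log2 fold change -2.21 ± 0.87 SE, edgeR adjusted p = 0.186). None of the 14 tested receptors and co-receptors was called, at a median of -0.34. Ror1, a receptor tyrosine kinase for Wnt5a, gave 3.50 to 6.38 CPM in AFX and 8.74 to 12.5 CPM in AF, which did not pass (log2 fold change -1.26 ± 0.44 SE, adjusted p = 0.125) except in a fit of only the 6 EpiSC libraries (0.0141) and with 1 mean per line (0.0171). Without AFX passage 12, 1 ligand (Wnt5a) and 2 receptors (Fzd5 and Fzd8) were called lower, against 2.53% of all genes in that fit.

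The secreted inhibitors, many of which are made by endoderm and streak cells, had a median log2 fold change of -1.64 over the 11 tested, and 1 of them, Sfrp4, was called lower. Sfrp4 gave 2.71, 3.63 and 7.56 CPM in AFX and 12.2, 10.03 and 21.02 CPM in AF (log2 fold change -1.64 ± 0.41 SE, edgeR adjusted p = 0.0305). That call ended without any 1 of AFX passages 5 and 8 or AF passages 13 and 15, at adjusted p of 0.0582 to 0.162. Frzb gave 0.857, 0.169 and 6.81 CPM in AFX and 16.2 to 43.4 CPM in AF, at an adjusted p of 0.095. Without AFX passage 12, 5 of 12 tested inhibitors were called lower (Cer1, Dkk1, Frzb, Sfrp4 and Wif1), against 2.53% of all genes in that fit.

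Of the intracellular machinery, none of 23 tested genes was called in either direction, also without AFX passage 12. The median log2 fold change was -0.02. Tnks2, encoding 1 of the tankyrases that XAV939 binds, gave 609 to 635 CPM in AFX and 527 to 569 CPM in AF (log2 fold change 0.17 ± 0.13 SE, edgeR adjusted p = 0.565). The other, Tnks, gave 112 to 167 CPM in AFX and 155 to 223 CPM in AF (-0.46 ± 0.21 SE, adjusted p = 0.268). Ctnnb1, encoding beta-catenin, gave 761 to 833 CPM in AFX and 687 to 852 CPM in AF, at a log2 fold change of 0.02 ± 0.16 (SE), whose sign changed between scalings. Tcf7l1, a TCF factor that mostly represses, gave 16.7 to 24.5 CPM in AFX and 13.5 to 14.5 CPM in AF (0.48 ± 0.35 SE, adjusted p = 0.524). These are transcript levels and do not measure the protein on which the inhibitor acts.

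Primitive streak and mesoderm genes were lower in AFX where they were called. Of 30 genes, 4 were set aside, 5 were too low to test and 1 was not found in the count table, which left 20. In AFX 6 of these fell (Mixl1, T, Nkx1-2, Pdgfra, Rspo3 and Eomes) and none was called higher, where 1.63% of all genes tested were called lower. The median log2 fold change was -2.22, or -2.02 with the gene that had no count in 1 group set at its bound, against 0.02 for all genes tested. In bulk RNA, fewer cells that express a gene and less RNA per cell cannot be told apart, here and in all results below.

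T, encoding brachyury, the T-box factor of the streak and early mesoderm, gave 3.96, 0.644 and 12.99 CPM at AFX passages 5, 8 and 12. In AF it gave 110, 136 and 33.3 CPM at passages 13, 14 and 15. The highest AFX library was below the lowest AF library, and the log2 fold change was -3.99 ± 0.93 (SE, n = 3 and 3, edgeR adjusted p = 0.0208). The FS libraries lay between 0.0956 and 2.51 CPM. Mixl1, a homeobox factor of the streak and a shared target of Wnt and Nodal, gave 0.893, 0.542 and 2.12 CPM in AFX and 8.36, 36.9 and 12.3 CPM in AF. Its log2 fold change was -4.01 ± 0.67 (SE, adjusted p = 0.002), and FS lay between 0.0737 and 0.419 CPM. Eomes, the T-box factor required for endoderm and mesoderm, gave 14.9, 13.1 and 21.1 CPM in AFX and 35.3, 126 and 65.8 CPM in AF (-2.21 ± 0.43 SE, adjusted p = 0.00657). FS held 15.5 to 45.3 CPM of it.

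Nkx1-2, a marker of the caudal epiblast, gave 2.32, 1.29 and 1.92 CPM in AFX and 21.9, 26.5 and 4.32 CPM in AF (log2 fold change -3.25 ± 0.68 SE, edgeR adjusted p = 0.0113). FS held at most 0.643 CPM of it. Rspo3, which encodes a secreted amplifier of Wnt signalling, gave 1.96, 1.59 and 5.73 CPM in AFX and 15.3, 24.4 and 9.38 CPM in AF (-2.40 ± 0.53 SE, adjusted p = 0.0149). Pdgfra, a receptor of mesoderm cells, gave 0.357, 0.271 and 2.26 CPM in AFX and 3.41, 11.6 and 7.36 CPM in AF (-2.95 ± 0.81 SE, adjusted p = 0.0492). Gsc, a homeobox factor of the anterior streak, gave 0.2499 and 0.305 CPM at AFX passages 5 and 8, 6.48 CPM at passage 12 and 10.1 to 37.1 CPM in AF, which did not pass (adjusted p = 0.106, and 0.0052 without AFX passage 12). Twist1, a mesoderm and mesenchyme factor, overlapped between the groups at 4.49 to 9.35 and 4.60 to 6.76 CPM.

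The calls of Mixl1 and Eomes held when any 1 library was left out (adjusted p up to 0.0206 and 0.0491). The call of T ended without AFX passage 5 or 8 or AF passage 13 or 14 (adjusted p 0.0635 to 0.118) and in a fit of only the 6 EpiSC libraries (0.0939), and those of Nkx1-2 and Rspo3 ended without AFX passage 5 or 8 or AF passage 14 (up to 0.068 and 0.0965). The call of Pdgfra ended without any library other than AFX passage 12, at adjusted p of up to 0.207. The count of streak genes called lower lay between 2 and 8 over these 6 fits, and was 8 without AFX passage 12.

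Many endoderm genes were low in AFX at passages 5 and 8 and higher at passage 12. All 18 tested genes of the endoderm list had a negative log2 fold change, against 7712 of all 16425 genes, at a median of -2.05. Only Flrt3 and Prdm1 were called lower with all libraries, where 1.63% of all genes were. Without AFX passage 12, 13 of the 18 were called lower, where 2.53% of all genes were, and the median was -4.68. The count lay between 1 and 13 over the 6 fits with 1 library left out. Of the 52 genes at least 4-fold above both other AFX libraries at passage 12, 10 belonged to this list. The level at passage 12 reached the lowest AF library for 7 of the 18 genes, against 1 at passage 5 and 3 at passage 8. Over all 16425 genes these counts were 11691, 11405 and 10930, so at each passage a smaller share of the endoderm genes reached AF than of all genes.

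Sox17, the SRY-box factor of definitive endoderm, gave 0.0714 and 0.102 CPM at AFX passages 5 and 8, which is 2 and 3 reads. At AFX passage 12 it gave 13.1 CPM, and in AF 22.2, 60.8 and 34.1 CPM. With all libraries the log2 fold change was -3.14 ± 1.14 (SE, edgeR adjusted p = 0.146), and without AFX passage 12 it was -8.73 (adjusted p = 0.000106). Leaving out any other 1 library gave an adjusted p of 0.211 to 0.401. Cer1, encoding the secreted Nodal, BMP and Wnt antagonist cerberus of the anterior endoderm, gave 2.00, 0.407 and 91.0 CPM at AFX passages 5, 8 and 12 and 134, 375 and 235 CPM in AF. Its adjusted p was 0.231 with all libraries, 0.00258 without AFX passage 12 and 0.3 to 0.502 without any other 1 library. FS held at most 0.495 CPM of Sox17 and 3.39 CPM of Cer1.

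The same order of libraries was seen for other factors of the lineage. Gata6, a GATA factor of endoderm, gave 0.214, 0.0678 and 6.75 CPM in AFX and 9 to 31.3 CPM in AF. Foxa2, a forkhead factor of endoderm and node, gave 1.71, 0.474 and 12.9 CPM in AFX and 23.5 to 66.0 CPM in AF. Cxcr4, a chemokine receptor on definitive endoderm, gave 0.9997, 0.746 and 18.3 CPM in AFX and 19.8 to 46.8 CPM in AF. These 3 were not called with all libraries (edgeR adjusted p = 0.148, 0.167 and 0.213) and were called without AFX passage 12 (0.00169, 0.0354 and 0.00114). None of the 3 was called without any other 1 library (0.191 to 0.502).

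Flrt3, a membrane protein of anterior endoderm and streak, was lower in every AFX library, at 3.28, 2.81 and 12.6 CPM against 33.9, 73.0 and 41.6 CPM in AF (log2 fold change -2.99 ± 0.56 SE, edgeR adjusted p = 0.00506). Its call held when any 1 library was left out (adjusted p up to 0.0386). Prdm1, encoding the repressor Blimp1 of endoderm and of germ cell precursors, gave 0.571, 0.339 and 2.77 CPM in AFX and 3.76, 15.4 and 6.76 CPM in AF (-2.81 ± 0.64 SE, adjusted p = 0.0173). The Prdm1 call ended without AFX passage 5 or 8 or AF passage 14 (up to 0.114).

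Extraembryonic endoderm shares Gata4, Gata6 and Sox17 with definitive endoderm. Its own list of markers still includes Gata4 and Gata6, so the sums and counts of the list rest partly on shared genes. Of its list of 13 markers, the 4 that were too low to test were Afp, Ttr, Sox7 and Amn, at 0 to 0.373 CPM in all 6 libraries. The list of 13 markers, 1 of them on a set-aside chromosome, summed to 167, 263 and 222 CPM at AFX passages 5, 8 and 12. In AF it summed to 529 to 657 CPM. All of its 8 tested members had a negative log2 fold change (median -1.61), against 7712 of all 16425 genes. None of the 8 was called with all libraries, and Foxq1, Gata4 and Gata6 were called lower without AFX passage 12.

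**Figure D2:**
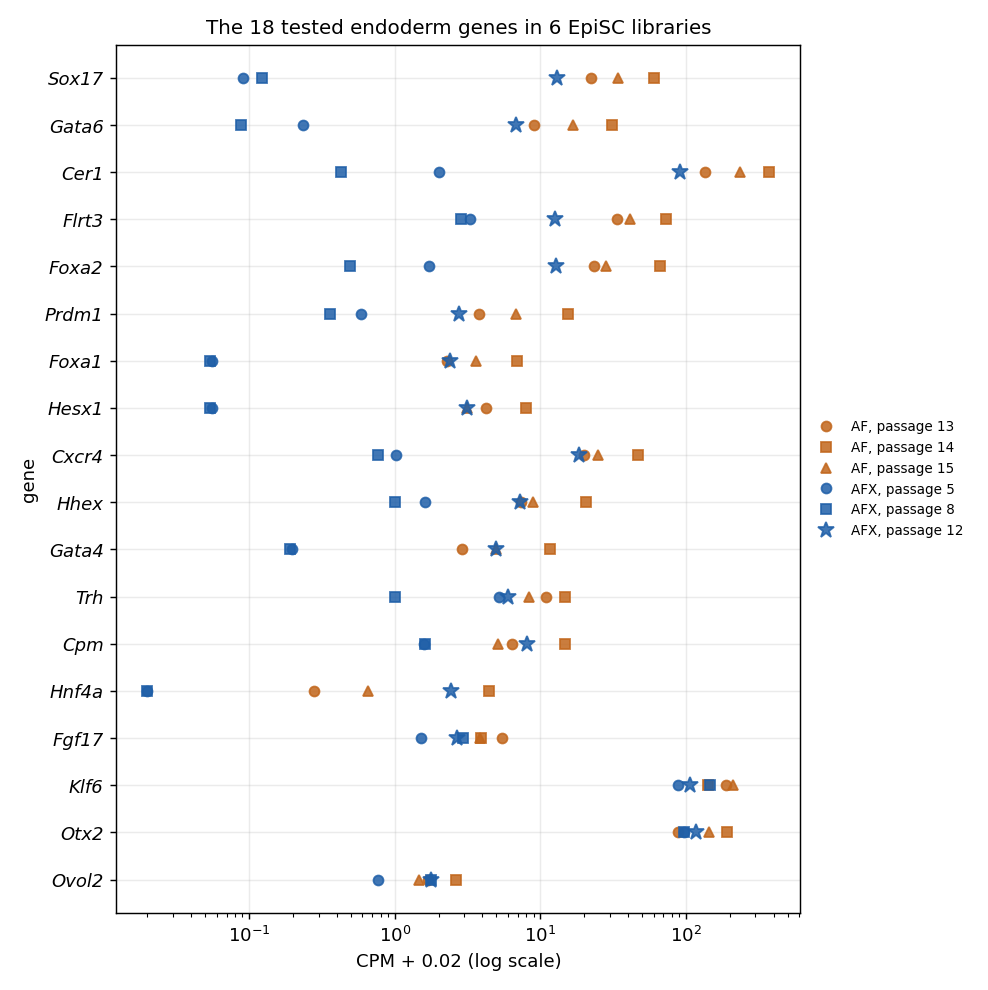
Level of the 18 tested endoderm genes in each EpiSC library, in CPM with 0.02 added, on a log axis, ordered from the lowest to the highest log2 fold change. Each point is 1 library, blue for AFX and orange for AF. For 10 of the genes the star, AFX passage 12, lies at least 4-fold above the other 2 blue points once 0.5 CPM is added to each, and for 7 of the 18 it reaches the lowest AF library, as 11691 of all 16425 genes did.

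Node and notochord genes were lower in AFX where they were called. Of 6 tested, Chrd and Bicc1 fell in AFX (1.63% of all genes did). All 6 had a negative log2 fold change (median -2.08), against 7712 of all 16425 genes. Chrd, encoding the BMP antagonist chordin, gave 3.61, 2.30 and 13.02 CPM in AFX and 24.3, 35.3 and 34.0 CPM in AF (-2.30 ± 0.55 SE, edgeR adjusted p = 0.0211). Bicc1, an RNA-binding protein of the node, gave 1.46 to 2.02 CPM in AFX and 3.75 to 8.27 CPM in AF (-1.86 ± 0.40 SE, adjusted p = 0.0121). Noto, the homeobox factor of the node, had no read at AFX passages 5 and 8, gave 0.911 CPM at passage 12 and 1.88 to 8.498 CPM in AF (adjusted p = 0.0587, and 0.0027 without AFX passage 12). Leaving out AFX passage 5 or 8 ended both calls (up to 0.123 for Chrd and 0.0776 for Bicc1), as did AF passage 14, AF passage 15 for Chrd and AF passage 13 for Bicc1.

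Early neural genes were lower in AFX where they were called, and most of the called ones were near the detection limit there. Of 28 tested neuroectoderm genes, 5 fell (Pou3f2, Meis2, Pax3, Olig3 and Dbx1) and none was called higher, against 1.63% of all genes called lower. The median log2 fold change was -2.05, or -1.77 with the 2 genes that had no count in AFX set at their bound. The median was -3.35 without AFX passage 12, and the 5 called lower were then Pou3f2, En1, Hesx1, Nr2f1 and Sox21. Meis2, a homeobox cofactor, gave 1.82, 0.305 and 0.978 CPM in AFX and 15.2, 11.8 and 2.97 CPM in AF (-3.28 ± 0.85 SE, edgeR adjusted p = 0.0366). Pou3f2, encoding the neural factor Brn2, gave 0.0339 to 0.472 CPM in AFX and 1.24 to 3.10 CPM in AF (-2.73 ± 0.59 SE, adjusted p = 0.0128). Olig3, a factor of the dorsal neural tube, had no read in AFX and 51, 29 and 2 reads in AF, which makes it at least 8.57-fold lower against a floor of 3 counts per library.

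Other genes of the neural lineage were not called. Nes, encoding the intermediate filament nestin of neural progenitors, gave 373 to 665 CPM in AFX and 264 to 504 CPM in AF (log2 fold change 0.25 ± 0.29 SE, edgeR adjusted p = 0.742). Sox1, the earliest specific factor of neuroectoderm, gave 0.571, 0.169 and 2.09 CPM in AFX and 10.4, 5.36 and 3.57 CPM in AF but was not called (adjusted p = 0.244). The 10 markers of differentiated neurons, 1 of them on a set-aside chromosome, summed to 124 to 219 CPM in AFX and 229 to 321 CPM in AF. None of the 9 tested was called. Among the 5 calls only that of Pou3f2 held without each AFX library, and it ended without AF passage 14 (0.076). Those of Meis2, Pax3 and Olig3 ended without any library other than AF passage 15, and that of Dbx1 without any 1 library (up to 0.155, 0.178, 0.115 and 0.179).

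**Figure D3:**
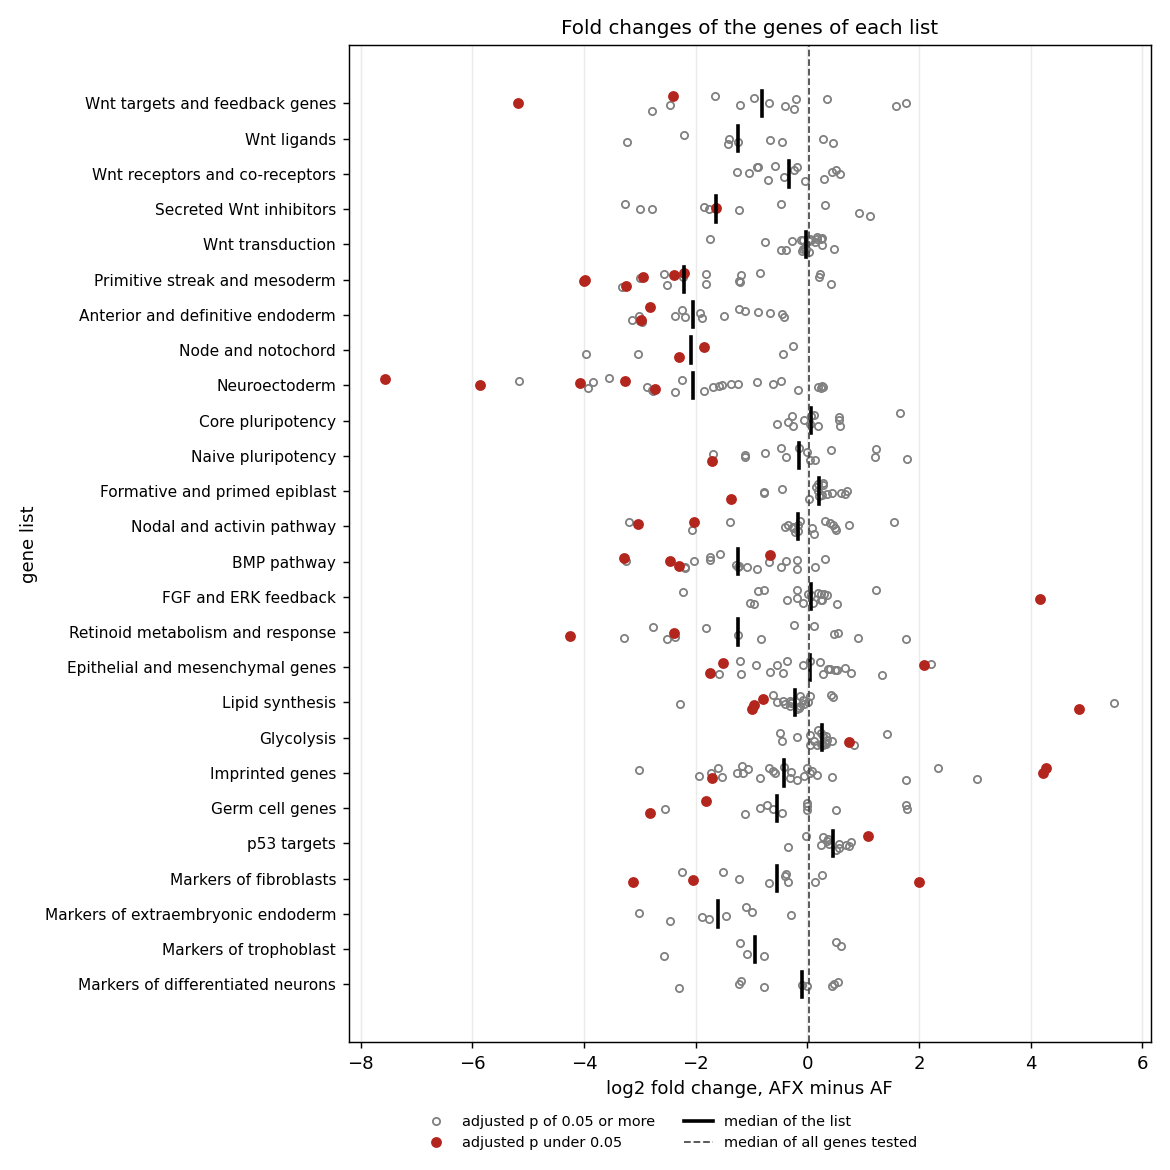
Log2 fold change, AFX minus AF, of each tested gene of the 26 lists. Open circles are genes at an adjusted p of 0.05 or more, red circles are called genes, black bars are list medians and the dashed line is the median of all genes tested (0.02). The lists of streak, endoderm, node and neuroectoderm genes have medians between -2.22 and -2.05, and those of core pluripotency and Wnt transduction lie at 0.06 and -0.02.

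Genes of the pluripotent state itself held few calls. None of 13 tested core pluripotency genes was called in the main fit, at a median log2 fold change of 0.06. Over the 18 alternatives given at the end, 0 to 3 of the 13 were called higher and 0 to 1 lower. Pou5f1 and Utf1 were each called in 1 of the 18. Pou5f1 gave 676 to 856 CPM in AFX and 506 to 532 CPM in AF (0.58 ± 0.33 SE, edgeR adjusted p = 0.391). Sox2 gave 42.3 to 52.6 CPM in AFX and 21.8 to 40.9 CPM in AF (0.56 ± 0.27 SE, adjusted p = 0.301). Nanog gave 129 to 250 CPM in AFX and 189 to 255 CPM in AF, so the groups overlapped (-0.27 ± 0.23 SE). Utf1, a chromatin factor of pluripotent cells, gave 90.0, 107 and 46.3 CPM in AFX and 17.3 to 31.7 CPM in AF without passing (1.66 ± 0.67 SE, adjusted p = 0.194).

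Among 17 tested genes of the formative and primed epiblast only Dact1, an inhibitor of Dishevelled that is also a Wnt feedback gene, was called. It gave 2.85 to 5.63 CPM in AFX and 6.88 to 16.1 CPM in AF (log2 fold change -1.37 ± 0.35 SE, edgeR adjusted p = 0.035), and the call ended without AFX passage 5 or 8 or AF passage 14 or 15 (up to 0.243). The list's median was 0.21. Fgf5 had no overlap, at 53.9 to 82.4 CPM in AFX and 90.7 to 141 CPM in AF, and was not called (adjusted p = 0.307). Otx2 and Dnmt3b, a homeobox factor and the DNA methyltransferase of the epiblast, overlapped. Of 15 naive genes Klf2 was called lower, at 0.169 to 0.506 CPM in AFX and 0.460 to 1.35 CPM in AF, while ES held 48.0 to 64.0 CPM. Its call ended without AFX passage 5 or 8 or AF passage 13 or 14 (up to 0.134).

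Activin and Nodal signal through SMAD2 and SMAD3 and cooperate with Wnt in the streak. Of 22 tested genes of that pathway Gdf3 and Fst fell in AFX, against 1.63% of all genes called lower, and the median log2 fold change was -0.17. Gdf3, a ligand related to Nodal, gave 0.214, 0.407 and 0.675 CPM in AFX and 3.38, 2.71 and 4.67 CPM in AF (-3.03 ± 0.41 SE, edgeR adjusted p = 0.000311), and its call held without any 1 library. Fst, encoding the activin-binding protein follistatin, gave 7.69 to 12.2 CPM in AFX and 14.3 to 75.3 CPM in AF (-2.03 ± 0.53 SE, adjusted p = 0.0347). The Fst call ended without any library other than AF passage 15 (up to 0.254).

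The ligand, its co-receptors and its feedback inhibitors were not called. Nodal gave 33.5 to 36.5 CPM in AFX and 22.1 to 37.9 CPM in AF (0.32 ± 0.68 SE, edgeR adjusted p = 0.881). Lefty1 overlapped between the groups, while Lefty2 gave 34.6, 12.98 and 34.8 CPM in AFX and 8.63 to 10.2 CPM in AF, at a log2 fold change of 1.55 ± 0.53 (SE, adjusted p = 0.123). Both encode secreted Nodal inhibitors. The co-receptor gene Tdgf1 gave 171 to 230 CPM in AFX and 191 to 290 CPM in AF. Its relative Cfc1 gave 0.179 and 0.237 CPM at AFX passages 5 and 8, 9.92 CPM at passage 12 and 19.1 to 45.6 CPM in AF, with an adjusted p of 0.0928 that was 0.000115 without AFX passage 12. In that fit the pathway's called genes were Gdf3, Cfc1 and Inhbb, all lower.

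In the BMP pathway 4 of 23 tested genes fell in AFX (Bmp5, Msx1, Smad1 and Chrd), none was called higher, and the median log2 fold change was -1.25. Of all genes tested 1.63% were called lower. Those called lower without AFX passage 12 were Bmp5, Msx1, Chrd, Bmp2 and Gata3. Bmp5, a ligand, gave 0.441 to 1.15 CPM in AFX and 2.94 to 5.26 CPM in AF (-2.47 ± 0.62 SE, edgeR adjusted p = 0.0366). Smad1, a transducer, gave 25.9 to 26.9 CPM in AFX and 35.1 to 53.3 CPM in AF (-0.67 ± 0.17 SE, adjusted p = 0.0366). Id1 and Id3, direct targets of the pathway, overlapped, with AFX passage 12 at 12.8 and 10.96 CPM and the other AFX libraries at 1.64 to 4.10 CPM. The calls of Bmp5 and Smad1 ended in 5 of the 6 fits with 1 library left out and that of Msx1 in 3 (up to 0.164, 0.25 and 0.319). Bmp5 passed without AFX passage 12 and Smad1 without AF passage 13, while Msx1 did not pass without AFX passage 5 or 8 or AF passage 14.

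FGF signalling genes had a median log2 fold change of 0.06 over 21 tested. Fgfr4, a receptor, was called higher from 31, 5 and 5 reads in AFX against 1, 0 and 1 in AF (edgeR adjusted p = 0.031), and the call ended without AFX passage 5 or any 1 AF library (up to 0.256). Dusp6, a phosphatase induced by ERK, gave 136 to 197 CPM in AFX and 143 to 152 CPM in AF. Among 15 retinoid genes Aldh1a2 and Crabp1 fell in AFX, against 1.63% of all genes called lower. Aldh1a2, which makes retinoic acid in mesoderm, gave 0.0357, 0.203 and 0.0675 CPM in AFX and 4.02, 1.05 and 1.03 CPM in AF (-4.24 ± 0.77 SE, adjusted p = 0.00405), and held without any 1 library. Crabp1 overlapped between the groups, and without AF passage 13, at 43.4 CPM, its adjusted p was 0.451. It also lost its call without any 1 of the AFX libraries.

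Of 23 epithelial and mesenchymal genes, Cdh2 and Vim fell, Mmp2 rose and the median log2 fold change was 0.05. Among all genes tested 1.63% were called lower and 1.24% higher. Vim, encoding the intermediate filament vimentin, gave 252, 183 and 222 CPM in AFX and 811, 531 and 535 CPM in AF (-1.51 ± 0.26 SE, edgeR adjusted p = 0.00215). Cdh2, encoding the cadherin of mesoderm and neural cells, gave 12.8 to 36.1 CPM in AFX and 77.6 to 107 CPM in AF (-1.74 ± 0.48 SE, adjusted p = 0.0479). Cdh1, the epithelial cadherin, gave 402 to 611 CPM in AFX and 286 to 375 CPM in AF and was not called (0.49 ± 0.65 SE, adjusted p = 0.783). The call of Cdh2 ended without any library other than AFX passage 12 (up to 0.21), and that of Vim held throughout these fits. Krt7, a keratin of simple epithelia, was also called lower without AFX passage 12.

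The naming rule took the 15 called genes with the largest fold in each direction, among those averaging 5 CPM or more in their higher group, with the libraries of the groups not overlapping. It was met by 155 genes, 58 higher and 97 lower in AFX. Of the 15 lower genes, Sp5, Mixl1, T, Nkx1-2 and Meis2 are given above. Ctgf, encoding a matricellular protein, gave 2.86, 4.10 and 2.83 CPM in AFX and 88.1, 42.2 and 126 CPM in AF (log2 fold change -4.71 ± 1.01 SE, edgeR adjusted p = 0.0134), and its call ended without AFX passage 5 or 8 (up to 0.0796). Apobec3, a cytidine deaminase that restricts retroviruses, gave 0.203 to 0.337 CPM in AFX and 5.20 to 6.94 CPM in AF (-4.47 ± 0.61 SE, adjusted p = 0.000313). Tex15, a gene of germ cells, gave 0.576 to 1.75 CPM in AFX and 5.91 to 23.9 CPM in AF (-4.08 ± 0.51 SE, adjusted p = 0.000165). Aplnr, the apelin receptor of early mesoderm, gave 0.714, 0.136 and 2.90 CPM in AFX and 19.4, 24.9 and 5.45 CPM in AF (-3.72 ± 0.99 SE, adjusted p = 0.0414).

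The other 6 were Gpr37, Sall3, Mir124-2hg, Pcdhga2, Fabp7 and Kitl, with log2 fold changes from -4.14 to -3.15 and adjusted p from 0.000364 to 0.0254. Gpr37 encodes an orphan receptor, and Fabp7 a fatty acid binding protein of neural progenitors. Kitl encodes the ligand of Kit. Kit itself, a germ cell gene in the lists, was called lower at 6.36, 5.999 and 20.1 CPM in AFX and 24.98, 56.9 and 33.2 CPM in AF (edgeR adjusted p = 0.0407). Calls of Sp5, Mixl1, Apobec3, Gpr37, Tex15 and Pcdhga2 held under all 18 alternatives. With 1 library left out those of Sall3 and Aplnr ended in 4 of 6 fits, that of Kitl in 3 and that of Mir124-2hg in 1 (adjusted p up to 0.134, 0.186, 0.126 and 0.0661). AFX passages 5 and 8 each ended the first 3, together with AF passages 13 and 14 for Sall3 and Aplnr and AF passage 14 for Kitl, and AFX passage 8 ended the last. Kit did not pass without AFX passage 5 or 8 or AF passage 14 or 15 (up to 0.196).

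Genes that were higher in AFX included transporters, enzymes and membrane proteins, and among the lists of lineages and signalling pathways only Fgfr4 was called higher. Cdcp1, encoding a transmembrane glycoprotein, gave 7.07, 9.66 and 2.60 CPM in AFX and no read in any AF library (edgeR adjusted p = 1.62e-05). Against a floor of 3 counts per library it was at least 64.3-fold higher. Gatm, the first enzyme of creatine synthesis, gave 8.64, 10.2 and 7.22 CPM in AFX and 0.418, 0.163 and 0.283 CPM in AF (log2 fold change 4.89 ± 0.34 SE, adjusted p = 1.41e-07). Slc38a4, an imprinted amino acid transporter, gave 29.96, 24.8 and 8.90 CPM in AFX and 1.77, 1.18 and 0.318 CPM in AF (4.27 ± 0.47 SE, adjusted p = 5.09e-05). Gusb, the lysosomal beta-glucuronidase, gave 22.3, 17.6 and 11.2 CPM in AFX and 1.64, 1.63 and 1.27 CPM in AF (3.48 ± 0.25 SE, adjusted p = 2.09e-07).

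Scd1, the desaturase that makes monounsaturated fatty acids, gave 188, 176 and 196 CPM in AFX and 8.45, 6.83 and 3.93 CPM in AF (log2 fold change 4.86 ± 1.27 SE, edgeR adjusted p = 0.0394). The groups were far apart, and the FS libraries ranged from 2.00 to 152 CPM. The call ended without any 1 EpiSC library (0.052 to 0.156), while with only the 6 EpiSC libraries and with 1 mean per line the adjusted p was 0.000138 and 3.83e-06. Mmp2, a matrix metalloproteinase, gave 18.9, 17.6 and 23.5 CPM in AFX and 6.43, 4.64 and 2.94 CPM in AF (2.09 ± 0.34 SE, adjusted p = 0.00138). The remaining 9 of the 15 were Slc45a1, Gsap, Zfp775, Smim3, Tvp23a, Gng3, Sv2a, Cebpd and H2-Bl, with log2 fold changes from 2.09 to 4.24 and adjusted p from 1.83e-05 to 0.0218. Slc45a1 encodes a sugar transporter, Gng3 a G protein subunit and Sv2a a synaptic vesicle protein. Calls of Cebpd and H2-Bl ended with single libraries left out (up to 0.081 and 0.119), namely AFX passage 5 or AF passage 14 for both, AF passage 15 for Cebpd, and AFX passage 8 or AF passage 13 for H2-Bl.

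**Figure D4:**
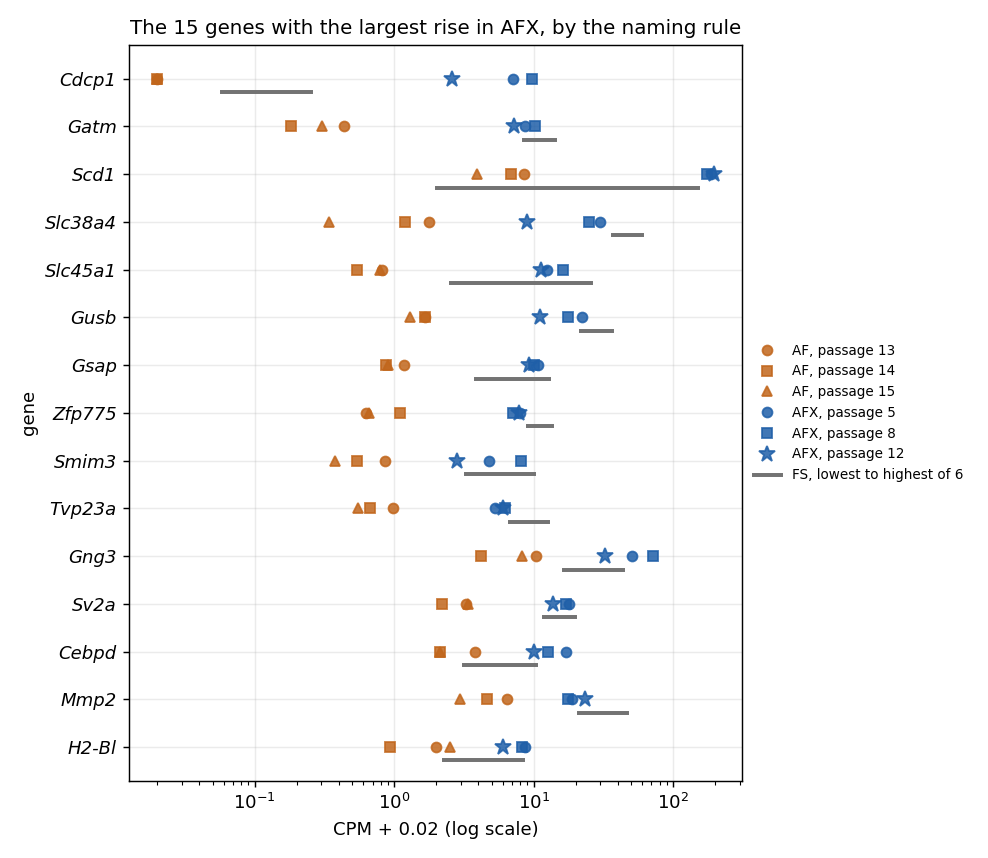
Level of the 15 genes with the largest rise in AFX by the naming rule, in CPM with 0.02 added, on a log axis, in each EpiSC library (blue for AFX, orange for AF, star for AFX passage 12). Grey bars run from the lowest to the highest of 6 FS libraries. All blue points lie right of all orange points. The grey bar lies near the blue points for Gatm, Gusb and Zfp775 and near 0 for Cdcp1, whose highest FS library held 0.236 CPM.

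Lipid synthesis genes held calls in both directions, and glycolysis genes and p53 targets held 1 call each. Of all genes tested 1.24% were called higher and 1.63% lower. Of 24 lipid synthesis genes Scd1 rose and Fads1, Fads2 and Elovl6 fell, with a median log2 fold change of -0.23. It was negative for 18 of the 24, against 7712 of all 16425 genes. Fads2 and Fads1, the desaturases of polyunsaturated fatty acids, had log2 fold changes of -0.998 ± 0.20 and -0.79 ± 0.18 (SE, edgeR adjusted p = 0.0084 and 0.0153). Elovl6, which elongates fatty acids, had -0.95 ± 0.21 (SE, adjusted p = 0.0161). Insig1, a sterol sensor, gave 66.0 to 84.5 CPM in AFX and 0.389 to 2.83 CPM in AF and did not pass (adjusted p = 0.0568). Its groups were far apart, and it was called in 4 of the 18 alternatives. Fads2 kept its call with any 1 library left out, Fads1 lost it without AFX passage 5 or 8 or AF passage 15 (up to 0.083), and Elovl6 without these or AF passage 14 (up to 0.0777). Of 21 glycolysis genes Pfkm rose (0.75 ± 0.18 SE, adjusted p = 0.0199), and 18 had a positive log2 fold change, against 8590 of all 16425 genes. Among 14 p53 targets Bbc3 rose (1.09 ± 0.28 SE, adjusted p = 0.032), and 12 had a positive log2 fold change. The Bbc3 call ended without any 1 library (up to 0.153), and that of Pfkm without AFX passage 5 or 8 or AF passage 13 or 14 (up to 0.125).

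Imprinted genes moved singly. Of 29 tested, Slc38a4 and Nnat rose, Cdkn1c fell and the median log2 fold change was -0.42. Among all genes tested 1.24% were called higher and 1.63% lower. Asb4 and Peg3 were also called lower without AFX passage 12. Nnat, encoding the membrane protein neuronatin, had 29, 12 and 56 reads at AFX passages 5, 8 and 12 and 2, 2 and 1 in AF (edgeR adjusted p = 0.00726), while FS held 18.7 to 77.9 CPM. Cdkn1c, a cell cycle inhibitor, gave 15.8, 12.5 and 12.3 CPM in AFX and 60.0, 38.2 and 35.4 CPM in AF (-1.72 ± 0.37 SE, adjusted p = 0.0125), and its call ended without AFX passage 8 or AF passage 13 (up to 0.072). H19, a maternally expressed RNA, gave 8.82 and 14.3 CPM at AFX passages 5 and 8 and 122 CPM at passage 12, against 2.65 to 8.78 CPM in AF (adjusted p = 0.0839).

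Markers of other cells were summed in each library. These sums include 1 fibroblast marker and 3 trophoblast markers on the set-aside chromosomes. The 14 fibroblast markers, which feeder cells would carry, came to 64.3, 67.3 and 102 CPM in AFX and 226, 114 and 157 CPM in AF at passages 13, 14 and 15. Of 12 tested fibroblast markers, Col3a1 and Col1a2 were lower and Thy1 was higher in AFX, and Acta2 and Postn were also called lower without AFX passage 12. Of all genes tested 1.63% were called lower and 1.24% higher, and 2.53% were called lower without AFX passage 12. Thy1 gave 4.57, 5.42 and 2.90 CPM in AFX and 0.743 to 1.25 CPM in AF, and Col3a1 1.18 to 1.68 CPM in AFX and 4.31 to 20.9 CPM in AF (edgeR adjusted p = 0.00305 and 0.00574). Lum and Dcn, which mark fibroblasts, lay at 0 to 0.131 and 0.438 to 1.25 CPM. The call of Col1a2 ended without AFX passage 5 or 8 or AF passage 13 or 15 (up to 0.101). The 11 trophoblast markers summed to 7.90 to 20.2 CPM in AFX and 16.8 to 22.9 CPM in AF, with none of 6 tested called, and with Gata3 and Krt7 called lower without AFX passage 12. The part of such cells in the differences above was not tested.

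Chromosome 11, whose genes were set aside when the comparison was defined, differed from the other autosomes. Of its 1396 tested genes 281 were called (20.1%), 46 higher and 235 lower in AFX, at a median log2 fold change of -0.42. On the other autosomes between 1.40% and 4.82% of genes were called and medians lay between -0.15 and 0.09. The X and Y chromosomes were set aside by the same rule. On X 32 of 686 genes were called (4.66%), which is within the range of the other autosomes. On Y 5 of 16 were called, all lower in AFX. The copy number of chromosome 11 was not measured, and whether the difference belongs to a line or to a medium cannot be told apart. When genes of the 3 chromosomes were left out before the model was fitted, 362 genes were called outside them, and all 362 were among the 470.

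**Figure D5:**
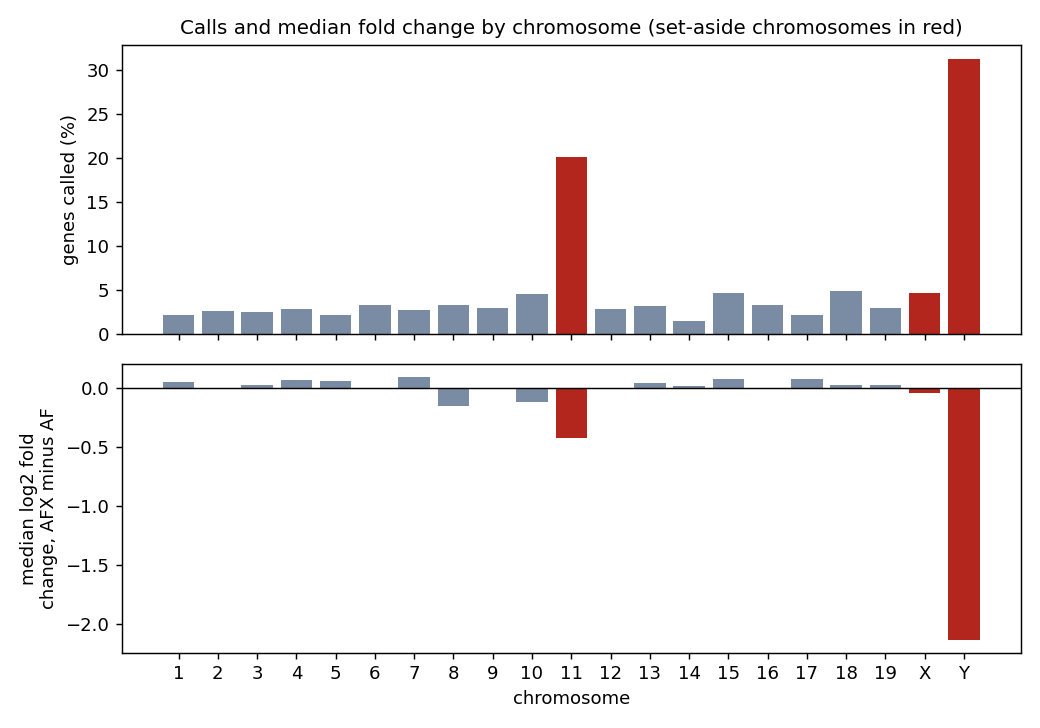
Share of tested genes called between AFX and AF (upper panel, percent) and median log2 fold change (lower panel) by chromosome. Red bars are the set-aside chromosomes. Chromosome 11 has 20.1% of its genes called and a median of -0.42, and no other autosome exceeds 4.82%.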

How the data were processed

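Total RNA was sequenced from 16 libraries, of which the 6 EpiSC libraries are compared here. Per the labels' protocols, Trizol lysates were purified on columns (PureLink) and sequenced as directional NEXTflex libraries. The submitters' processing notes list Trim Galore, TopHat2 2.1.0, featureCounts 1.5.0 and the build mm10. The strand setting and annotation release were not given in the sources used here, so overlapping, antisense and near-identical genes (clustered protocadherins, histones, H2 genes) are uncertain. The deposited values are the authors' raw counts for 34042 genes, and 6 further columns that matched no sample were not used.

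Libraries were grouped by culture condition. Genes were kept by filterByExpr, scaled by TMM and tested with a robust quasi-likelihood model on all 16 libraries in edgeR 4.0.16 (R 4.3.3), with Benjamini-Hochberg adjustment over all 18555 genes tested. Of these, 2098 on chromosomes 11, X and Y and 32 with no chromosome in GENCODE on GRCm38 were set aside. SE is of the log2 fold change, CPM are on the TMM scale, and EpiSC libraries held 25683808 to 33290250 counts. Groups at 0 were set at 3 counts per library for bounds, which cover counting error only. The procedure was tested on simulated data.

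Genes were named by rule: called, a log2 fold change of at least 1 in size, an average of 5 CPM or more in the higher group, no overlap, the 15 largest in each direction, leaving out predicted genes and pseudogenes. Genes of 26 lists were also eligible, and those written out were chosen after their values were seen. The comparison, its members and the lists were chosen with earlier results of these data known. Alternatives, fixed in advance, were DESeq2 1.42.0 (size factors or Wald test), total counts, 2 other filters, a test against a log2 change of 1, fits of only the 6 libraries, per line or with passage, leaving out mitochondrial genes or the set-aside chromosomes, and leaving out each library. Another of them adjusted p only outside the set-aside chromosomes. Promoter windows are from RefSeq, and 24 of 36 genes looked up had one.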

Additional observations from a re-analysis of the deposited data

Results flagged for a closer look

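In 4 cases 1 library of FS or ES lay apart from the rest of its group by Dixon's gap test, which chance alone does for about 1 in 20 groups. The EpiSC groups, with 3 libraries each, were not examined in this way. Scd1 reached 152 CPM in FS replicate 4 against 2.00 to 52.2 CPM in the other FS libraries. Nnat gave 18.7 CPM in the same library against 57.8 to 77.9 CPM in the others. H2-Bl gave 8.34 CPM in FS replicate 1 against 2.26 to 4.38 CPM in the others. The mitochondrial rRNA gene mt-Rnr2 took 38.1% of the counts in ES replicate 1, while the other ES libraries gave 17.7% to 18.97%.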

How the results depend on the processing

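No paired analysis was possible because the replicate numbers follow accession order and pair no libraries. Outside chromosomes 11, X and Y, 470 genes were called and 388 of them had a log2 fold change of at least 1 in size. With 1 library left out these counts lay between 185 and 632 and between 170 and 567. They were 922 and 645 with the DESeq2 Wald test, 1667 and 701 in a fit of only the 6 EpiSC libraries, and 819 and 649 with 1 mean per line. Both were 73 when edgeR tested against a log2 change of 1, which asks for more than a difference from 0. The causes of the other changes were not tested. In the other 8 settings the counts were within 1.5 times the main ones. Of the 470 genes, 405 were also called with only the 6 libraries, 279 with passage as a covariate and 379 without AFX passage 12. Of 66 called genes named in the text, 19 were called under all 18 alternatives and none changed direction. The test against a log2 change of 1 ended 47 of these calls, passage as a covariate 23, and leaving out AFX passage 5 or 8 ended 34 each. The main adjustment included the genes of the set-aside chromosomes. With p adjusted only outside chromosomes 11, X and Y, 360 genes were called and 15 of the 66 calls ended.

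Among the genes named by the rule or from the lists, changes of sign were found only in genes that were not called. With passage as a covariate the log2 fold change was 0.57 for Lef1, 0.32 for Ccnd1, 0.0483 for Fgf5, 1.27 for Lefty1, 0.87 for Tdgf1 and -0.0579 for Ctnnb1. Ctnnb1 was also at -0.0124 with total counts and -0.0015 with the 3 chromosomes left out, and between -0.0571 and 0.0939 with 1 library left out (negative without AFX passage 12 or AF passage 15). With 1 library left out Twist1 lay between -0.0814 (without AFX passage 5) and 0.446, and Nes between -0.0214 (without AFX passage 8) and 0.421. At these depths, genes with fewer than about 10 reads in 1 group, such as Olig3, Dbx1, Pax3 and Fgfr4, give a direction and an imprecise fold.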

Other observations

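Some gene families were picked by their symbols after values had been seen, and their counts stand beside 1.63% of all genes called lower and 1.24% called higher in AFX. Of 32 tested collagen genes, 5 were lower in AFX and none was called higher, at a median log2 fold change of -0.82 against 0.02 for all genes. They were Col11a1, Col12a1 and Col4a2, besides Col3a1 and Col1a2 of the fibroblast markers, and the calls of Col11a1 and Col12a1 ended without AFX passage 12. Col4a2, a basement membrane collagen, gave 13.9, 11.5 and 21.5 CPM at AFX passages 5, 8 and 12 and 39.8, 43.3 and 25.02 CPM in AF (edgeR adjusted p = 0.027). Of 34 tested clustered protocadherins, which are cell surface proteins encoded in 3 gene arrays, 10 were lower and 1 was higher in AFX, and 11 were lower and none was called higher without AFX passage 12. Pcdha11 gave 0.0678 to 0.107 CPM in AFX and 1.35 to 1.93 CPM in AF, while Pcdhga11 gave 11.5 to 14.9 CPM in AFX and 3.40 to 4.37 CPM in AF. Single isoforms of these arrays share exons, so their counts depend on how shared reads were assigned.

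Of 63 tested clustered histone genes, 62 had a positive log2 fold change, against 8590 of all 16425 genes. Their median was 0.83, and 6 were called higher in AFX. The summed level of the family was 8981, 11370 and 8511 CPM at AFX passages 5, 8 and 12 and 6310, 5491 and 5198 CPM in AF, so the groups did not overlap. This sum is over 69 genes, 3 of them on the set-aside chromosomes. Most of these transcripts lack a poly(A) tail, and how the RNA was selected was not given in the sources used here. Of 8 tested guanylate-binding proteins, which are induced by interferon, Gbp3, Gbp4 and Gbp11 were lower in AFX. Without AFX passage 12 only Gbp11 was called (adjusted p of edgeR for Gbp3 and Gbp4, 0.0623 and 0.0585). Gbp3 gave 0.786, 3.22 and 1.35 CPM in AFX and 14.9, 7.03 and 7.89 CPM in AF (edgeR adjusted p = 0.0196). Of 24 tested H2 genes of the major histocompatibility complex only H2-Bl was called, and it was higher in AFX.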
